A study of Mus musculus with 7 samples.

Results

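The genes described are 50 members of the actomyosin and actin cytoskeleton of mouse blood stem cells, taken by name from a list of actin, myosin, tropomyosin, focal adhesion and actin-turnover genes. All 50 were found among the 34932 genes with a row, and all 50 passed the filter on low counts that left 14695 genes for testing. Bulk RNA sequencing was done on LT-HSCs, the long-term stem cells of blood that can rebuild every lineage, flushed from tibia and femur marrow and sorted as lineage-negative, Sca-1+, cKit+, CD150+ and CD48- cells. Libraries of 4 samples labelled B4galt1 KO (genotype 129S1/C57Bl/6, B4-/-, a full knockout of a galactosyltransferase that builds sugar chains on proteins) were compared with libraries of 3 samples labelled WT (129S1/C57Bl/6). Age, sex and littermate status were not given. The labels do not say that replicates came from separate animals, so the p-values speak only for the spread among these 7 samples, part of which may be technical.

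Non-muscle myosin II is a motor of heavy chains, essential light chains and regulatory light chains that slides actin filaments past each other, and phosphorylation of the regulatory light chain switches it on. Tropomyosins, caldesmon and calponins lie along the actin filament and set which proteins can bind it, while alpha-actinin, filamin and the integrin-linked kinase complex tie filaments to each other and to the membrane. In blood stem cells this machinery serves shape, migration and anchorage in the marrow, and in megakaryocytes and platelets it is present at high levels and drives proplatelet formation and contraction of the clot.

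Total estimated counts were between 23508985 and 34941390 per library. B4galt1 itself was measured first. Its level was 19.3, 14.9, 14.8 and 14.6 CPM (counts scaled to a common library total by the TMM method) in the libraries labelled KO and 19.2, 24.4 and 11.3 CPM in WT, a log2 difference of -0.20 with an adjusted p of 0.758. The ranges overlapped, and the difference was 0.04 without WT replicate 2, so RNA level gave no check of the labels, and KO and WT stand here for libraries so labelled. The part of the gene that the knockout removes is not given in the labels. RNA of the sorting markers Kit, Ly6a (Sca-1) and Slamf1 (CD150) was present in both groups, with means of 252, 169 and 95.2 CPM in KO and 308, 156 and 108 CPM in WT. In each group 1 library stood apart in Y-linked RNA, which over 4 genes summed to 10.9 CPM in the fourth KO library (the other 3 at 330.2 to 364.6 CPM) and to 6.04 CPM in the third WT library (the other 2 at 255.7 and 266.5 CPM).

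Of the 50 members, 22 were lower in the libraries labelled KO (44%) and 0 were higher, by edgeR's quasi-likelihood test with a Benjamini-Hochberg adjusted p below 0.05 over all genes tested. Over all 14695 genes, 2.26% were called, 1.66% lower and 0.599% higher. Across the members the median log2 fold change was -0.81, where the median of all genes was 0.03, and 44 members (88%) lay below 0, against 47.3% of all genes. In 34 members every KO library lay below every WT library and in 0 members above, and the ranges overlapped in the other 16. Over all genes tested, 7.47% had every KO library below every WT library, 8.23% had every KO library above, and 15.7% were apart in either direction. The fall was over 4-fold in 10 of the 22 called members and under 2-fold in 4. The other 28 members did not pass, 10 of them with an unadjusted p below 0.05. At this number of libraries, simulated counts with known changes gave a call for 28% of 100 genes changed 2-fold and for 81% of 100 genes changed 4-fold, so a member that did not pass is not shown to be unchanged.

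**Figure D1:**
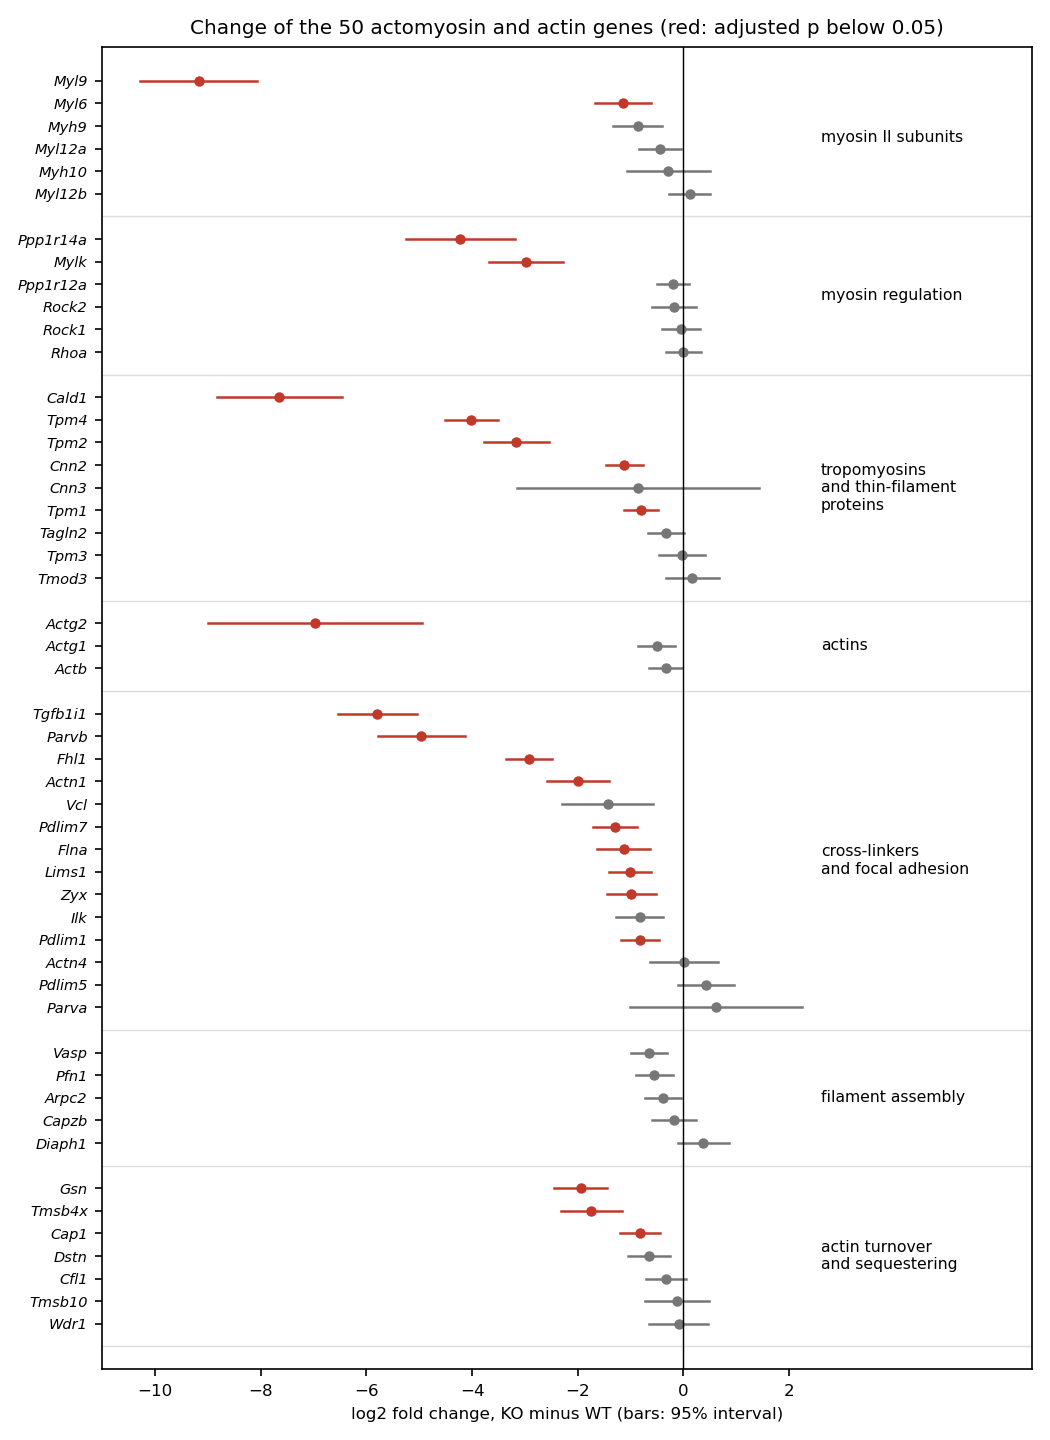
Each point is 1 member's log2 fold change (KO minus WT, 4 against 3 libraries) with its 95% interval, grouped by role, and red marks an adjusted p below 0.05. Called members stand in 6 of the 7 roles, from Myl9 at -9.18 to Tpm1 at -0.80, and no red point lies to the right of 0.

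Megakaryocyte and platelet RNA differed between the same groups. The summed level of 20 megakaryocyte and platelet markers lay between 1638 and 2449 CPM in KO and was 9053, 13173 and 6530 CPM in WT replicates 1 to 3, and 14 of the 20 were called lower and 0 higher. The log2 fold changes of the 20 ran from -7.36 to 0.74 with a median of -1.69, 18 of them below 0 and 2 above. The fall was over 4-fold in 9 of the 14 called markers. Pf4, a platelet chemokine, had a mean of 915 CPM in KO. Its WT levels were 3698, 6376 and 2791 CPM. The marker sum, in which markers of high level weigh most, was highest in WT replicate 2. Most called markers peaked there, as Pf4 did, and the others in replicate 1 or 3, as Alox12 and Tubb1 did. Of the 22 called members, 7 were highest among WT libraries in replicate 1, 9 in replicate 2 and 6 in replicate 3. The part of these cells or their RNA in the differences described here was not tested, and in bulk samples fewer cells of a type and less RNA per cell cannot be told apart. The 10 smooth muscle and pericyte markers summed to between 3.99 and 8.74 CPM in KO and between 3.57 and 5.04 CPM in WT, with 9 of 10 below 1 CPM in every library. Among them, Myh11, Des and Lmod1 were at 0 in all 7 libraries, and none was called. Stroma markers summed to 33.6 to 70.8 CPM in KO and 50.4 to 82.0 CPM in WT, and endothelial markers to 183 to 237 and 230 to 255 CPM. Erythroid markers summed to 210 to 374 and 224 to 342 CPM, granulocyte and monocyte markers to 625 to 779 and 763 to 898 CPM, and lymphoid markers to 12.3 to 19.5 and 11.9 to 14.6 CPM. These 5 ranges overlapped, but single markers differed within them. Mean levels in KO and WT were 2.90 and 94.9 CPM for Hba-a1 and 2.75 and 47.6 CPM for Hba-a2 in the erythroid list. For Ramp2 in the endothelial list they were 0.445 and 8.13 CPM. In these genes every KO library lay below every WT library. Hbb-bt (112 and 39.4 CPM) and Klf1 (46.3 and 19.2 CPM) had higher means in KO, with overlap. No erythroid or endothelial marker was called. Within the granulocyte and monocyte list, whose sum is mostly Lyz2 (462 to 574 CPM in KO), Ms4a3 was called higher (log2 fold change 1.70, adjusted p 0.0232) and S100a9 lower (-2.23, adjusted p 0.0404). Mpo had a mean of 39.5 CPM in KO and 7.03 CPM in WT, with no overlap and an adjusted p of 0.0509. The sum of 12 LT-HSC markers was between 1379 and 1610 CPM in KO and between 1676 and 1970 CPM in WT, and 1 of the 12, Mllt3, was called lower. In TPM, a level corrected for transcript length, the same sum overlapped, at 636 to 871 in KO and 730 to 874 in WT.

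Promoters of the members were read for the CArG box, the motif of the serum response factor SRF, which with its myocardin-related partners drives many actin and contractile genes. In the RefSeq table on GRCm38.p6, which holds 250 bases before to 50 bases after each annotated start, 43 of the 50 members had 56 promoters. A CArG box lay in 6 of the 43 members (14.0%), against 488 of all 27025 genes with a promoter (1.81%). Counted by promoter, the share over all 32851 promoters was 1.63%. The box lay in 4 of the 20 called members with a promoter, Myl9, Cnn2, Myl6 and Fhl1, and in 2 of the 23 that did not pass, Actg1 and Vcl. The letters AGATAA, read on both strands as a motif of the blood GATA factors, lay in 2 of 43 members (4.65%) and in 12.7% of all genes. These are matches of letters in a window and show no binding. The boxes of the 4 called members are shown in capitals with up to 60 bases of promoter on each side, ending where an annotated exon begins, each 5′ to 3′ on its gene's strand.
Myl9, chr2:156775243-156775372, plus strand: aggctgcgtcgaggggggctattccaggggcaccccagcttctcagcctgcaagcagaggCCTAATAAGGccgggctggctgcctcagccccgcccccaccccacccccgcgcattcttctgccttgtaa
Cnn2, chr10:79988484-79988583, plus strand: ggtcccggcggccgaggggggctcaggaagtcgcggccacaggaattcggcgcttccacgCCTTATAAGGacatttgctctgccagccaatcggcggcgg
Myl6, chr10:128493046-128493119, minus strand: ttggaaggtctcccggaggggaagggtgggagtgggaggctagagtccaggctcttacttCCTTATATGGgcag
Fhl1, chrX:56779524-56779650, plus strand: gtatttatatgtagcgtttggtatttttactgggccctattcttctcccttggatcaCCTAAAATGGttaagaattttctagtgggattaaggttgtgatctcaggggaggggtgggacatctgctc
The boxes start 161, 56, 50 and 102 bases before the RefSeq start in Myl9, Cnn2, Myl6 and Fhl1. SRF itself and its partners Mrtfa, Mrtfb and Myocd, genes of the wider actin pathway list, were named after their values were seen. Srf had 13.2 ± 4.37 CPM in KO (SD, n = 4) and 22.7 ± 6.76 CPM in WT (SD, n = 3). Its log2 fold change was -0.78 with an adjusted p of 0.275. Mrtfa and Mrtfb had log2 fold changes of -0.15 and -0.13 (adjusted p 0.771 and 0.784), and Myocd did not pass the filter. Any part of SRF in the members' differences was not tested.

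Among the 6 subunits of non-muscle myosin II, 2 were called lower, the light chains Myl9 and Myl6. Myl9 (ENSMUSG00000067818, chr2:156775420-156781658, plus strand, mm10) is a regulatory light chain best known from smooth muscle and platelets. It had 0.156, 0.628, 0.439 and 1.49 CPM in the 4 KO libraries and 457, 447 and 346 CPM in the 3 WT libraries. The highest KO library was far below the lowest WT library, and the groups did not overlap. The log2 fold change was -9.18 (SE 0.50, adjusted p 9.3e-06), and it was -9.96 without KO replicate 4. Its closest relatives in sequence, the regulatory light chains Myl12a and Myl12b on chromosome 17, did not follow it. Myl12a was at 522, 514, 525 and 369 CPM in KO and at 598, 770 and 596 CPM in WT, every KO library below WT but with an adjusted p of 0.290 for a log2 fold change of -0.44. Myl12b was at 836, 924, 1023 and 644 CPM in KO and at 803, 748 and 810 CPM in WT. These ranges overlapped, and its log2 fold change of 0.12 had a 95% interval of -0.27 to 0.51.

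The 3 regulatory light chains have 516 coding bases each. Over these, Myl9 shares 85.7% of bases with Myl12a and 86.4% with Myl12b, and Myl12a and Myl12b share 96.5%. The first 90 coding bases are shown because reads of the 3 genes are told apart by such differences, and capitals mark bases that differ from Myl9 (GENCODE M21).
Myl9: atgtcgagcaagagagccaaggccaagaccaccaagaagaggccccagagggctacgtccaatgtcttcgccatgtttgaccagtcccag
Myl12a: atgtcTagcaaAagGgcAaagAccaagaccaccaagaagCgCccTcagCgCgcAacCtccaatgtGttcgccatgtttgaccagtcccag
Myl12b: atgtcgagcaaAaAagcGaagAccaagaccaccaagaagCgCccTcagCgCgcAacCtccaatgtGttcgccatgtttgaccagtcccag
In this stretch Myl12a differs from Myl9 at 13 bases and Myl12b at 12, while Myl12a and Myl12b differ from each other at 4. The neighbours Myl12a and Myl12b are therefore the pair between which reads are hardest to divide. As a share of the summed TPM (a level corrected for transcript length) of the 3 genes, Myl9 made up between 0.0189% and 0.148% in KO and between 20.1% and 24.8% in WT. Myl12b took the largest share in every KO library, 58.5% to 63.3%, and 35.6% to 43.9% in WT. The 3 genes together summed to 1340 ± 230 CPM in KO (SD, n = 4) and 1858 ± 107 CPM in WT (SD, n = 3), and the ranges of 1014 to 1548 and 1752 to 1965 CPM did not overlap.

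Myl6, the essential light chain of non-muscle and smooth muscle myosin, was at 906, 841, 829 and 539 CPM in KO and at 1614, 2320 and 1242 CPM in WT. All KO libraries lay below WT, with KO replicate 4 the lowest and WT replicate 2 the highest, and the log2 fold change was -1.15 (SE 0.24, adjusted p 0.0342). The call was lost without KO replicate 2, KO replicate 3, WT replicate 1 or WT replicate 2 (highest adjusted p 0.106). Myh9, the main heavy chain of platelets and of most blood cells, was at 35.6, 27.6, 37.8 and 27.7 CPM in KO and 66.7, 66.9 and 42.4 CPM in WT. Its groups did not overlap, but the log2 fold change of -0.87 had an adjusted p of 0.0666. Myh10, the second non-muscle heavy chain, had 10.8 ± 4.72 CPM in KO (SD, n = 4) and 13.2 ± 2.85 CPM in WT (SD, n = 3), with overlapping ranges and an adjusted p of 0.736.

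Among the 6 regulators of myosin, 2 were called lower. Mylk, the kinase that phosphorylates the regulatory light chain, was at 7.49, 7.43, 13.0 and 4.30 CPM in KO and at 60.7, 71.7 and 58.2 CPM in WT, a log2 fold change of -2.98 (SE 0.32, adjusted p 5.6e-04). Its longest coding transcript, with 5850 coding bases, held 91.0% of the gene's reads in KO and 97.3% in WT. Ppp1r14a encodes CPI-17, a small inhibitor of myosin phosphatase. It was at 0.702, 1.70, 0.878 and 0.621 CPM in KO and at 10.4, 29.2 and 15.004 CPM in WT, a log2 fold change of -4.22 (SE 0.47, adjusted p 7.5e-04). In both genes the lowest WT library was several times the highest KO library. The other 4 did not pass. Rhoa, a small GTPase, had 343 ± 32.9 CPM in KO (SD, n = 4) and 344 ± 31.1 CPM in WT (SD, n = 3), and the 95% interval of its log2 fold change was -0.34 to 0.33. The kinases Rock1 and Rock2, which phosphorylate myosin phosphatase, had log2 fold changes of -0.05 and -0.17, with intervals of -0.41 to 0.31 and -0.59 to 0.25. Ppp1r12a, the targeting subunit of myosin phosphatase, lay at -0.20 with an interval of -0.51 to 0.10. The sign for Rhoa and Rock1 depended on the processing.

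The 9 tropomyosins and thin-filament proteins held 5 lower members, and the 4 tropomyosin genes did not move alike. Tpm4, the main tropomyosin of platelets, was at 29.8, 37.9, 33.4 and 52.4 CPM in KO and at 545, 585 and 731 CPM in WT. Every WT library stood at least 10 times above every KO library, and the log2 fold change was -4.01 (SE 0.22, adjusted p 9.7e-06). Tpm2 was at 8.59, 15.01, 9.54 and 15.3 CPM in KO and at 83.8, 150 and 93.7 CPM in WT, a log2 fold change of -3.17 (SE 0.28, adjusted p 1.4e-04). Tpm2 lies 2.66 Mb from B4galt1 on chromosome 4, and a part of the locus in its difference was not tested. Tpm1 was at 116, 123, 110 and 133 CPM in KO and at 206, 189 and 238 CPM in WT, a log2 fold change of -0.80 (SE 0.15, adjusted p 0.0184), and its call was lost without KO replicate 2, KO replicate 3, WT replicate 1 or WT replicate 3 (highest adjusted p 0.0789). Tpm3 was at 634, 886, 770 and 844 CPM in KO and at 858, 579 and 958 CPM in WT. The Tpm3 ranges overlapped, and the log2 fold change of -0.03, whose sign depended on the processing, had an interval of -0.47 to 0.41.

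By TPM the makeup of the tropomyosin pool differed between the groups. Tpm3 was 76.4% to 79.6% of the summed tropomyosin TPM in KO and 33.1% to 46.5% in WT. Tpm4 was 3.40% to 4.59% in KO and 28.8% to 32.6% in WT, and Tpm2 was 2.03% to 2.93% in KO and 9.51% to 19.5% in WT. The share of Tpm1 overlapped, at 14.7% to 17.7% in KO and 14.7% to 14.9% in WT. The 4 genes summed to between 788.8 and 1063 CPM in KO and between 1503 and 2020 CPM in WT.

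**Figure D2:**
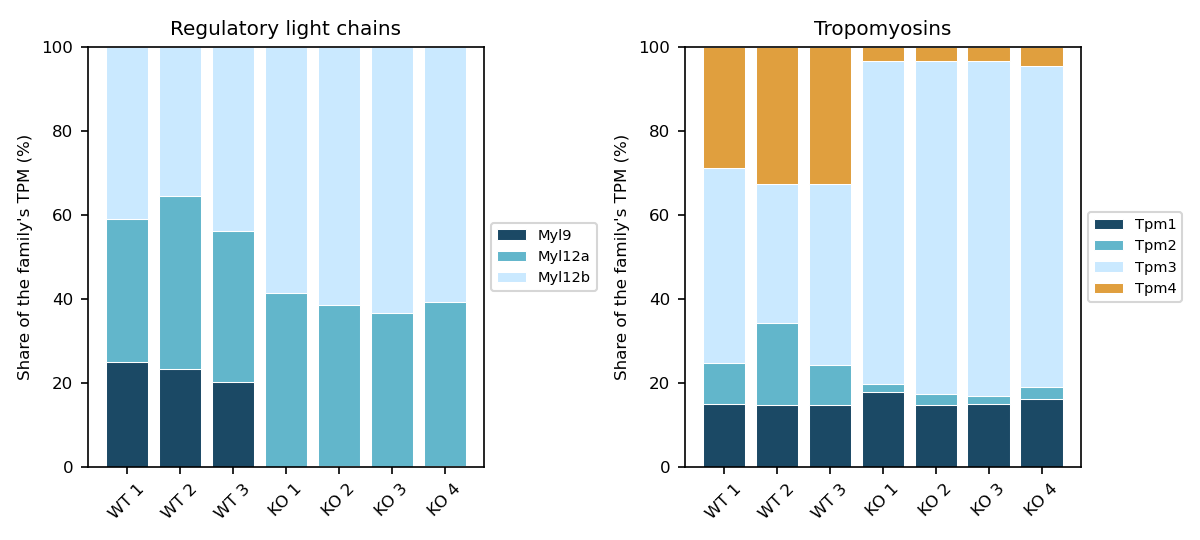
Bars give each gene's percent of the summed TPM of its family in each of the 7 libraries, for the regulatory light chains and the tropomyosins. Myl9 is almost absent from the 4 KO bars (0.148% at most), and Tpm3 fills 76.4% to 79.6% of the KO tropomyosin bars and 33.1% to 46.5% of the WT bars.

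The transcripts of Tpm1 were also divided unequally, given as a description because Salmon splits reads between transcripts that share exons. Tpm1-214 and Tpm1-213, of 852 coding bases, start translation in an upstream exon. Tpm1-214 had 7.60, 0, 0 and 0 estimated reads in KO and 294, 623 and 720 in WT, and Tpm1-213 had 0 in every KO library and 162, 245 and 495 in WT. The short form Tpm1-212, of 744 coding bases, held 79.7% of the gene's reads in KO and 52.4% in WT. All KO libraries were at or near 0 for these 2 forms. Another form with the upstream start of Tpm1-214 and Tpm1-213, Tpm1-201, went the other way from them, at 53.3, 30.2, 31.8 and 26.4 reads in KO and 3.16, 0 and 20.1 in WT.

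Among the thin-filament proteins, Cald1 (caldesmon, which blocks myosin on the filament) was at 0.234, 0.185, 0.987 and 0.135 CPM in KO and at 73.4, 97.8 and 58.0 CPM in WT. No KO library reached 1 CPM and no WT library was below 58.0 CPM. The log2 fold change was -7.65 (SE 0.54, adjusted p 3.1e-05), and it was -8.70 without KO replicate 3. Its main coding transcript in WT, Cald1-204, had 0, 0, 12.2 and 0 estimated reads in KO and 1492, 1724 and 997 in WT, while the retained-intron transcript Cald1-218 had 1 to 6.01 reads in every library. Cnn2, the calponin of blood cells, was at 144, 168, 198 and 165 CPM in KO and at 393, 324 and 380 CPM in WT, a log2 fold change of -1.12 (SE 0.16, adjusted p 0.00394). Its groups did not overlap. Cnn3 was near the detection limit, with 1.92 ± 1.96 CPM in KO (SD, n = 4) and 3.48 ± 2.18 CPM in WT (SD, n = 3), and up to 22% of the reads assigned to it or its near-identical copies fell on a copy. Tagln2, a transgelin that binds and stabilises filaments, was at -0.33 on the log2 scale with every KO library below WT and an adjusted p of 0.349. Tmod3, which caps the slow-growing filament end, did not pass, and its log2 fold change of 0.16 changed sign with the processing.

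All 3 actins had every KO library below every WT library in CPM, and 1 of them was called. In TPM this was not so for their sum, which was 1849 to 3876 in KO and 2327 to 3456 in WT. Actb had 1789 ± 629 TPM in KO (SD, n = 4) and 1690 ± 333 TPM in WT (SD, n = 3), and Actg1 had 953 ± 211 and 1173 ± 234 TPM. The TPM of Actb depends on how Salmon splits its reads between transcripts of unlike length. Actb-201, of 1920 bases, held from 37.0% of them in KO replicate 4 to 98.4% in WT replicate 2. Actb, the beta-actin of all cells, was at 1681, 2067, 1986 and 2140 CPM in KO and at 2530, 2452 and 2468 CPM in WT, a log2 fold change of -0.34 with an adjusted p of 0.314. Actg1, the cytoplasmic gamma-actin, was at 1256, 1547, 1470 and 1729 CPM in KO and at 2063, 1979 and 2352 CPM in WT, a log2 fold change of -0.51 with an adjusted p of 0.151. For both, the 95% interval stayed below 0 (-0.65 to -0.02 and -0.85 to -0.16) while the adjusted p did not pass. Transcripts that matched Actb by the near-identity criterion (at least 90% of bases) were read nearly only from Lrrc58, a separate protein-coding gene, and held between 4.95% and 7.14% of the reads of Actb and these transcripts together. Adding the reads of such transcripts to the members changed no call. Actg2, the gamma-actin of smooth muscle, was at 0, 0, 0 and 0.0270 CPM in KO and at 1.05, 2.48 and 1.29 CPM in WT, with an adjusted p of 0.00230. It rested on 1 read in KO against 114 in WT, a ratio per read of 166 with a counting interval of 29.2 to 6619 (95%), which covers counting error only.

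The 14 cross-linkers and focal adhesion proteins had the most called members, 9, with a median log2 fold change of -1.07. Of the 2 alpha-actinins, which bundle filaments, Actn1 was at 5.39, 5.99, 5.67 and 6.92 CPM in KO and at 29.0, 27.5 and 15.4 CPM in WT, a log2 fold change of -1.999 (SE 0.26, adjusted p 0.00233). Actn4 was at 75.6, 72.2, 63.8 and 156 CPM in KO and at 86.4, 105 and 82.4 CPM in WT. KO replicate 4 was the highest of all 7 for Actn4 and the other 3 KO libraries lay below WT, so that the log2 fold change was 0.01 with all libraries and -0.36 without KO replicate 4. Flna, filamin A, which crosslinks filaments and links them to the platelet receptor for von Willebrand factor, was at 76.1, 70.4, 81.1 and 85.4 CPM in KO and at 193, 215 and 105 CPM in WT. Its log2 fold change of -1.13 had an adjusted p of 0.0279, and the call was lost without any 1 of KO replicates 1, 2 or 3 or WT replicates 1 or 2 (highest adjusted p 0.113).

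At the focal adhesion, the scaffold Tgfb1i1 (Hic-5, a paxillin relative) was at 0.859, 0.554, 0.768 and 1.24 CPM in KO and at 32.0, 50.3 and 62.6 CPM in WT, a log2 fold change of -5.79 (SE 0.34, adjusted p 1.05e-05). Parvb, a parvin of the complex around integrin-linked kinase, was at 4.84, 2.62, 3.40 and 1.59 CPM in KO and at 90.4, 132 and 67.4 CPM in WT, a log2 fold change of -4.96 (SE 0.37, adjusted p 4.6e-05). In both genes no KO library came near a WT library. The value of Parvb was -3.41 with an offset for transcript length, and it went with a split of its reads. The full coding transcript Parvb-201 held 49.7% of the gene's reads in KO and 89.98% in WT, and the retained-intron transcript Parvb-203 held 41.5% and 2.16%. Its relative Parva was at 0.702 ± 0.0764 CPM in KO (SD, n = 4) and 0.461 ± 0.495 CPM in WT (SD, n = 3), near the lower limit of the counts, with overlapping ranges.

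The other partners in the kinase complex lay between these. Lims1 (PINCH1), its adaptor, was at 343, 324, 312 and 242 CPM in KO and at 494, 647 and 712 CPM in WT, a log2 fold change of -1.02 (SE 0.18, adjusted p 0.0151), and its call was lost without KO replicate 2, KO replicate 3 or WT replicate 3 (highest adjusted p 0.0649). Ilk, the kinase-like scaffold itself, was at 203, 270, 263 and 320 CPM in KO and at 449, 371 and 590 CPM in WT, a log2 fold change of -0.83 with an adjusted p of 0.0697. Neither gene's groups overlapped. Zyx (zyxin, which marks stretched filaments) was at 150, 199, 199 and 291 CPM in KO and at 437, 384 and 427 CPM in WT, a log2 fold change of -0.99 (SE 0.21, adjusted p 0.0370). The call on Zyx was lost without any single library other than KO replicate 4 (highest adjusted p 0.127). Vcl (vinculin, which couples talin to actin) had every KO library below WT, at 41.1, 24.5, 34.6 and 16.6 CPM against 52.4, 136 and 48.1 CPM. WT replicate 2 was over 2 times the other WT libraries for Vcl, and the adjusted p for its log2 fold change of -1.43 was 0.104.

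The LIM-domain proteins completed this role. Fhl1 was at 22.0, 18.7, 19.97 and 27.1 CPM in KO and at 185, 128 and 185 CPM in WT, a log2 fold change of -2.92 (SE 0.20, adjusted p 2.3e-05). Pdlim1 and Pdlim7 join LIM and PDZ domains and bind alpha-actinin or tropomyosin. Pdlim7 was at 21.3, 31.9, 29.2 and 33.5 CPM in KO and at 80.7, 63.1 and 69.9 CPM in WT, a log2 fold change of -1.30 (SE 0.19, adjusted p 0.00474). Pdlim1 was at 136, 179, 154 and 143 CPM in KO and at 285, 230 and 294 CPM in WT, a log2 fold change of -0.82 (SE 0.16, adjusted p 0.0252), and its call was lost without KO replicate 1, KO replicate 3, WT replicate 1 or WT replicate 3 (highest adjusted p 0.111). In all 3 genes every KO library was below every WT library. Pdlim5, the third relative, had 19.4 ± 4.60 CPM in KO (SD, n = 4) and 14.4 ± 1.81 CPM in WT (SD, n = 3), with overlapping ranges, a log2 fold change of 0.43 and an adjusted p of 0.447.

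None of the 5 proteins of filament assembly was called, and their log2 fold changes lay between -0.66 and 0.38. Vasp, which feeds actin monomers to growing ends, was at 51.0, 51.3, 56.2 and 55.9 CPM in KO and at 97.3, 84.1 and 72.1 CPM in WT, a log2 fold change of -0.66 with an adjusted p of 0.0583. Pfn1, profilin, the carrier of actin monomers, was at 2203, 2379, 2050 and 1630 CPM in KO and at 3105, 3112 and 2843 CPM in WT, a log2 fold change of -0.55 with an adjusted p of 0.132. Arpc2, a core subunit of the branch-forming Arp2/3 complex, had a log2 fold change of -0.38 and an adjusted p of 0.290. In these 3 genes every KO library lay below every WT library and the unadjusted p was below 0.05. The ranges overlapped for the formin Diaph1 and for the capping protein subunit Capzb.

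Of the 7 proteins of actin turnover and sequestering, 3 were called lower. Tmsb4x, thymosin beta 4, binds actin monomers and holds them back from polymerising, and it had the highest level of all 50 members by TPM. It was at 4179, 3637, 3388 and 2295 CPM in KO and at 10814, 15604 and 7524 CPM in WT, a log2 fold change of -1.75 (SE 0.26, adjusted p 0.00528). KO replicate 4 was the lowest and WT replicate 2 the highest, and the groups did not overlap. Its relative Tmsb10 was at 553, 542, 589 and 278 CPM in KO and at 567, 668 and 371 CPM in WT, with overlapping ranges and a log2 fold change of -0.13 whose sign depended on the processing. Gsn, gelsolin, which severs and caps filaments, was at 15.3, 11.5, 17.9 and 22.1 CPM in KO and at 58.0, 60.9 and 73.9 CPM in WT, a log2 fold change of -1.94 (SE 0.23, adjusted p 0.00103).

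Gelsolin reads were split differently as well. Gsn-201, of 2340 coding bases, held 40.8% of the gene's reads in KO and 72.5% in WT, and Gsn-205, of 2193 coding bases, held 59.2% and 27.3%. Gsn-205 had 152, 143, 260 and 633 estimated reads in KO and 597, 34.6 and 658 in WT, so WT replicate 2 stood apart for it. Gsn-201 had 239, 167, 229 and 186 reads in KO and 1108, 1265 and 1048 in WT, with no overlap. Cap1, which recycles actin from cofilin, was at 82.7, 115, 111 and 122 CPM in KO and at 207, 165 and 198 CPM in WT, a log2 fold change of -0.82 (SE 0.17, adjusted p 0.0352), and its call was lost without KO replicates 1, 2 or 3 or WT replicates 1 or 3 (highest adjusted p 0.140). The cofilins Cfl1 and Dstn (destrin), which sever old filaments, lay at log2 fold changes of -0.34 and -0.65 with adjusted p of 0.400 and 0.107. Dstn had every KO library below WT. The ranges overlapped for Cfl1 and for Wdr1, a cofilin partner.

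By length-corrected level the 3 highest members were Tmsb4x, with 5968 ± 937 TPM in KO (SD, n = 4) and 17005 ± 3849 TPM in WT (SD, n = 3), Pfn1, with 3494 ± 247 and 4555 ± 373 TPM, and Cfl1, with 2372 ± 257 and 2631 ± 465 TPM, ordered by the KO mean. Myl6 stood above Cfl1 in WT, at 3042 ± 603 TPM (SD, n = 3). The 50 members together took between 2.22% and 2.39% of all TPM in KO and between 3.56% and 3.99% in WT. Tmsb4x alone made up 21.3% to 31.3% of the members' TPM in KO and 36.3% to 51.5% in WT. In CPM the members summed to 20248 ± 1668 in KO (SD, n = 4) and 35756 ± 3874 in WT (SD, n = 3), a ratio of 0.566. Without Tmsb4x the sums were between 15815 and 18479 CPM in KO and between 24168 and 24640 CPM in WT, a ratio of 0.690.

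**Figure D3:**
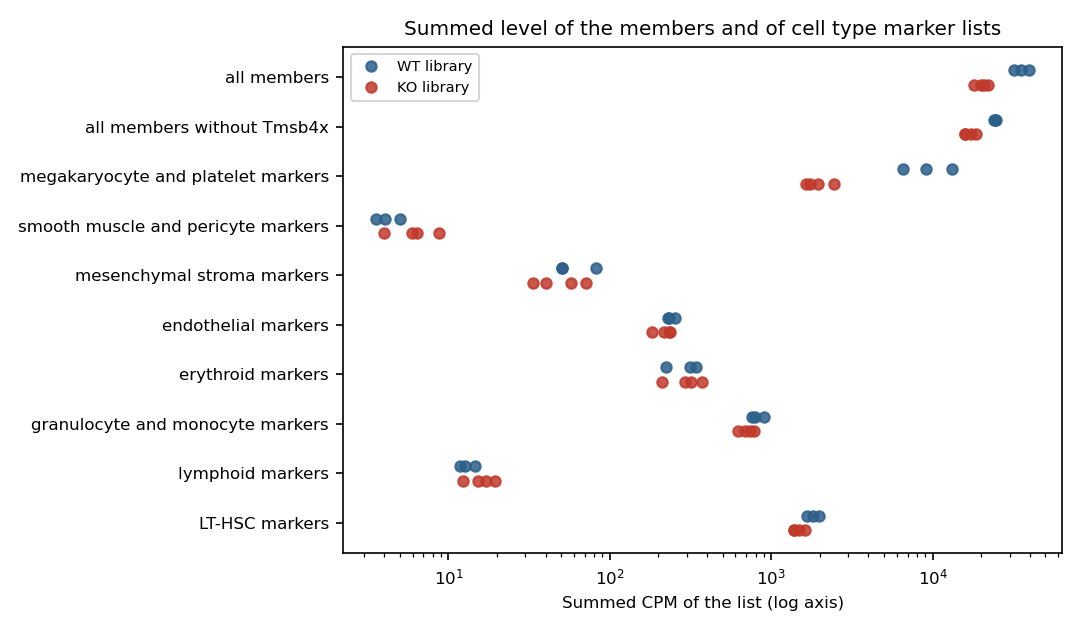
Points are summed CPM in each of the 7 libraries on a log axis, for all members, for members without Tmsb4x and for 8 lists of cell type markers. KO points lie below WT points for the members (ratio of means 0.566), for megakaryocyte and platelet markers (0.203) and for LT-HSC markers (0.806), and the other lists overlap. In TPM, not drawn, the LT-HSC markers overlap as well (ratio of means 0.974).

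Whether relatives differed in their change was tested on the log2 ratio of 2 members' reads within a library, with 2 added to each count. Where reads are many, this ratio does not depend on the scaling between libraries. The 21 pairs were tested by a two-sided exact permutation test over the 35 arrangements of 4 against 3 libraries, whose smallest p is 0.0286. In 14 pairs p was at that smallest value, which became 0.0429 after Benjamini-Hochberg adjustment over the pairs. The adjusted value depends on how many pairs share the smallest p. The pairs were chosen with earlier results of these data known, and many share a gene. The 14 are therefore not separate results, and their number is given as a description. On the log2 scale (KO minus WT of the ratio), the ratio of Myl9 to Myl12a fell by 8.98 and that to Myl12b fell by 9.53. Against Tpm3, the ratio of Tpm4 fell by 4.03, that of Tpm2 fell by 3.16 and that of Tpm1 fell by 0.79. Against Tpm4, the ratio of Tpm1 rose by 3.23 and that of Tpm2 by 0.87. The ratio of Actn1 to Actn4 fell by 1.86, that of Parvb to Parva fell by 5.88 and that of Pdlim7 to Pdlim5 fell by 1.71. The ratio of Tmsb4x to Tmsb10 fell by 1.57 and that of Actg2 to Actb fell by 4.03. The latter rests on few reads of Actg2, and the ratio of Parvb to Parva on few reads of Parva, so the added count weighs on their size. The ratio of Myl12a to Myl12b fell by 0.55, and that of Tpm2 to Tpm1 fell by 2.36.

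In the other 7 pairs the test did not pass. The ratio of Myh9 to Myh10 differed by -0.47 (exact permutation, adjusted p 0.233), of Rock1 to Rock2 by 0.13 (adjusted p 0.253), of Actb to Actg1 by 0.17 (adjusted p 0.106), of Dstn to Cfl1 by -0.28 (adjusted p 0.270) and of Cnn3 to Cnn2 by -0.65 (adjusted p 0.8286). These 5 pairs had overlapping ranges. Pdlim1 differed from Pdlim5 by -1.22 and from Pdlim7 by 0.49, both with an adjusted p of 0.0750. In these last pairs the KO and WT ratios did not overlap.

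**Figure D4:**
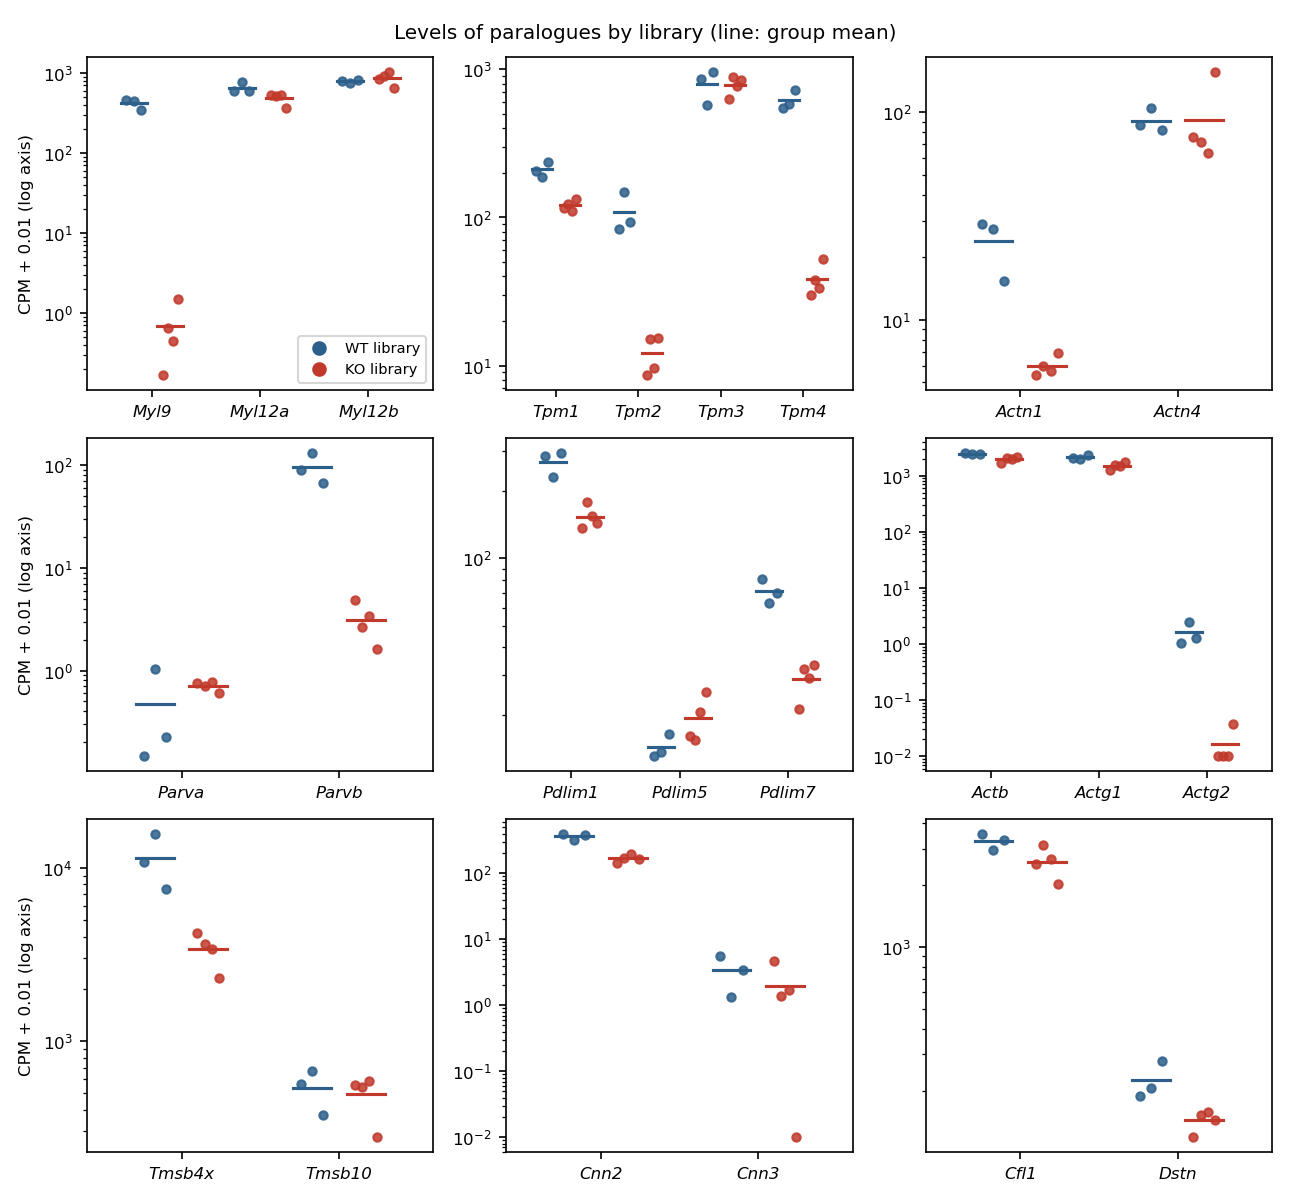
Each point is 1 library's CPM plus 0.01 on a log axis, red for KO and blue for WT, in 9 families of related members, and lines are group means. In every family but the actins, a relative is lower in KO with no overlap while another has overlapping groups. Those without overlap are Myl9, Myl12a, Tpm1, Tpm2, Tpm4, Actn1, Parvb, Pdlim1, Pdlim7, Tmsb4x, Cnn2 and Dstn. Those with overlap are Myl12b, Tpm3, Actn4, Parva, Pdlim5, Tmsb10, Cnn3 and Cfl1. The actins are all lower in KO with no overlap.

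A wider list of 88 other actin pathway genes was read beside the members, of which 73 passed the filter. Of these, 2 were called lower (2.74%) and 0 higher, and their median log2 fold change was -0.03. In 8 of the 73 every KO library lay below WT, in 5 above, and in 60 the ranges overlapped. Rhoc, a small GTPase, was at 1.07 ± 0.559 CPM in KO (SD, n = 4) and 5.01 ± 1.27 CPM in WT (SD, n = 3), a log2 fold change of -2.22 (SE 0.48, adjusted p 0.0404). Cap2, the muscle relative of Cap1, was at 2.06 ± 0.337 CPM in KO (SD, n = 4) and 6.11 ± 1.48 CPM in WT (SD, n = 3), a log2 fold change of -1.57 (SE 0.34, adjusted p 0.0403). Both genes are of low level. The call on Rhoc was lost without any 1 library, and that on Cap2 without any 1 library other than KO replicate 4. The members were proposed with earlier results of these data known, so their count and that of the wider list are set side by side as a description.

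**Figure D5:**
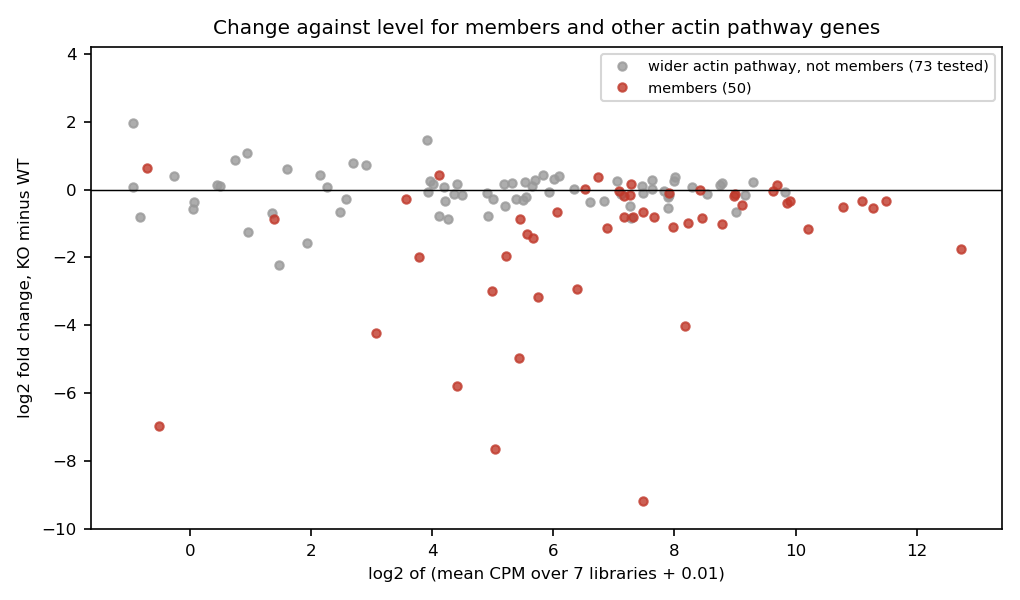
Each point is 1 gene, with the log2 of its mean CPM over 7 libraries (plus 0.01) on the x axis and its log2 fold change (KO minus WT) on the y axis, red for the 50 members and grey for the 73 tested genes of the wider list. Grey points lie around 0 with a median of -0.03, while red points reach down to -9.18 for Myl9.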

How the data were processed

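Bulk RNA-seq libraries of sorted LT-HSCs (4 labelled KO, 3 labelled WT; groups and replicate numbers from the labels) used a SMART-Seq kit without strand information (labels' protocols), and reads of overlapping or antisense genes cannot be told apart. The submitters' processing notes name cutadapt, Salmon 0.11.2 and mm10, with a transcript set not given in the sources used here. Values deposited are estimated counts per transcript, which need not be whole, and TPM, which the authors' deposited files give beside them and which Salmon corrects for effective length.

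The estimated counts were summed per gene with GENCODE M21 and rounded. Of 112092 transcripts, 305 had no match and held 0.0836% to 0.123% of reads. The member symbols were all found. In the wider list, Mkl1 and Mkl2 were matched as Mrtfa and Mrtfb. edgeR 4.0.16 (R 4.3.3) was run with filterByExpr, TMM, glmQLFit and glmQLFTest on all genes, and p-values were Benjamini-Hochberg adjusted over all 14695 tested, with a threshold of 0.05. SE is the log2 fold change over the square root of F. In simulated data of 14361 genes, 8 of 14161 unchanged genes were called. Paralogue ratios used a prior count of 2. Levels between genes use deposited TPM only. Near-identical copies were transcripts with at least 90% identity over 80% of the length. Alternatives were other scalings (RLE, upper quartile), filters, DESeq2 1.42.0, limma 3.58.1 voom, a length offset, a replicate block, a Y-linked term, protein-coding genes, libraries with Y-linked expression, and each library left out. After seeing the data, summing copies into members was added.

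The members, lists and pairs were chosen with earlier results of these data known. Members that passed and members of the pairs are named, the rest where the unadjusted p was below 0.05 and otherwise by count, with the 3 highest in TPM. A few more (Ppp1r12a, Rhoa, Tagln2, Tmod3, Diaph1, Capzb, Wdr1, Pf4, Alox12, Tubb1, Hba-a1, Hba-a2, Hbb-bt, Klf1, Ramp2, Mllt3, Lyz2, Ms4a3, S100a9, Mpo, the sorting markers, Srf, Mrtfa, Mrtfb and Myocd) were named after their values were seen. Promoter sequence is from RefSeq, coding sequence from GENCODE. Counting intervals cover counting error only.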

Additional observations from a re-analysis of the deposited data

Results flagged for a closer look

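In 5 of the 50 members, 1 of the 4 KO libraries lay far from the other 3 by Dixon's criterion. Chance flags about 1 in 20 groups, and groups of 3 were not examined, so WT libraries could not be flagged. The fourth KO library held 156 CPM of Actn4, where the others had 63.8 to 75.6 CPM, with Myl12a at 369 CPM against 514 to 525 CPM, Tmsb10 at 278 CPM against 542 to 589 CPM, and Actg2 at 0.0270 CPM against 0. KO replicate 4 is also the KO library without the Y-linked level of the others, and any part of that in these values was not tested. In the third KO library, Cald1 stood at 0.987 CPM and in the others between 0.135 and 0.234 CPM, still far below the lowest WT library at 58.0 CPM.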

How the results depend on the processing

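Of the 22 called members, 15 kept their call in all 19 alternative fits and 7 (Cap1, Flna, Lims1, Myl6, Pdlim1, Tpm1, Zyx) lost it in at least 1; none reversed. The members lower numbered between 15 and 23 with 1 library left out, 16 with the replicate number as a block and 29 with DESeq2; members higher numbered 0 throughout. The block's 16 lost Myl6, Tpm1, Flna, Lims1, Pdlim1 and Cap1. Same-numbered libraries did not deviate together (r of -0.05, -0.12 and -0.04, and 0 of 3 WT libraries best with their own number), so numbers do not pair them. The wider list had 4 lower with DESeq2, 4 with voom, 1 with the length offset, 1 with the block, 1 in libraries with Y-linked expression and 0 to 3 with 1 library left out, against 2. Over all genes, 244 were lower and 88 higher, with 567 and 378 by DESeq2, 439 and 269 by voom, 396 and 218 with the Y-linked term, 215 higher with the length offset (46.1% of calls against 26.5%), 58 higher with the block, and 157 to 279 lower and 30 to 130 higher with 1 library left out.

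Reversals touched members near 0. Actn4 went to -0.0049 (RLE), -0.045 (upper quartile), -0.00038 (stricter filter), -0.0073 (DESeq2), -0.27 (voom), -0.19 (length offset), -0.37 (block), -0.052 (Y-linked term), -0.0024 (protein-coding) and -0.42 (libraries with Y-linked expression). Rhoa went to 0.019 (block) and 0.074 (Y-linked libraries), Rock1 to 0.064 (voom) and 0.027 (block), Tpm3 to 0.0073 (Y-linked term) and 0.093 (Y-linked libraries), Tmod3 to -0.029 (block), Tmsb10 to 0.15 (voom) and 0.11 (block), and the Myh9 to Myh10 ratio to 0.16 with TPM. With 1 library left out, ranges were -0.36 to 0.15 for Actn4, -0.10 to 0.027 for Rhoa, -0.13 to 0.035 for Rock1, -0.24 to 0.11 for Tpm3, -0.019 to 0.30 for Tmod3, -0.35 to 0.079 for Tmsb10, -0.27 to 0.066 for Wdr1 and -0.47 to 0.037 for B4galt1. The cause was not tested. Ratios passed in 16 pairs with TPM and 14 with a prior count of 0.5. Myl9 reached -10.08 and Actg2 -8.51 in libraries with Y-linked expression. Depth limits Actg2, Cnn3 and Parva, with few reads.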
